A study of Mus musculus with 6 samples.

Results

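The genes described here encode the kinases that open the cell cycle, their cyclins and most of their direct inhibitors: the D cyclins Ccnd1, Ccnd2 and Ccnd3, the cyclin-dependent kinases Cdk4 and Cdk6, the inhibitor Cdkn1b (p27) of the CIP/KIP family, and the INK4 family inhibitors Cdkn2a, Cdkn2b, Cdkn2c and Cdkn2d. They were chosen by name, and all 10 were found once each among the 49671 genes of the count table. They were measured by RNA-seq in mouse preadipocytes that had been differentiated in culture, in 3 libraries termed knockout and 3 termed control. Knockout cells carried floxed Tcf7l2 (Tcf7l2 F/F) and CreERT2, a Cre recombinase switched on by 4-hydroxytamoxifen, and received that drug for 24 h, starting 2 days before differentiation was induced. Control cells, labelled wild type, carried the same floxed gene and the same CreERT2 and received ethanol, so that deletion of Tcf7l2 and exposure to the drug cannot be told apart. Cells of both groups came from inguinal fat of C57BL/6 mice aged 3 months, were sorted for CD34, Sca1 and CD29, and were immortalised with a retrovirus carrying SV40 large T antigen. A further retrovirus, pMSCV CreERT2, brought in the recombinase. Cells of both groups were then induced with dexamethasone (1 µM), isobutylmethylxanthine (0.5 mM) and insulin (5 µg/mL) for 2 days, and their RNA is labelled as from day 8. A further agent, given at 5 nM, carries another code in each library, so it is uncertain whether all 6 had the same compound. The labels are silent on whether the line was a clone and on whether each library had its own culture. The p-values therefore reflect only library-to-library spread, part or all of which may be technical.

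D cyclins bind CDK4 or CDK6, and the active pair phosphorylates the retinoblastoma (pocket) proteins, which releases E2F factors and lets a cell enter S phase. INK4 proteins bind CDK4 and CDK6 and keep the D cyclins off, whereas p27 binds cyclin-CDK complexes and chiefly inhibits those that hold CDK2. SV40 large T antigen binds the pocket proteins and p53, so the cells studied here carry a viral protein that acts downstream of these kinases. In mouse adipocytes the same genes have further roles: cyclin D1 restrains and cyclin D3 assists the adipogenic receptor PPARγ, CDK4 takes part in adipocyte differentiation and in insulin signalling, and loss of CDK6 favours beige fat.

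Libraries held 26764263 to 31520011 counts in knockout and 26621293 to 33484764 in control cells, and 3346 genes were called between the groups. Tcf7l2 itself was at 5.65, 6.85 and 5.86 CPM (read counts relative to library size, scaled with TMM) in knockout libraries, against 7.71, 6.13 and 9.11 CPM in control libraries. The groups overlapped and the gene was not called (log2 fold change -0.32; edgeR adjusted p = 0.125), though it was without control replicate 2 (-0.46; adjusted p = 0.0322). A count over all exons of a gene can miss the deletion of 1 of them, so it is no check of the genotype labels, and the groups are named by those labels.

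Among the 10 genes, Cdk6 and Cdkn2b were higher and Cdk4 was lower in knockout cells, and no difference was called for the D cyclins or for the other inhibitors. All 10 passed the filter on low counts. Calls are from edgeR's quasi-likelihood test over 14946 genes, with a threshold of 0.05 on the p-value after Benjamini-Hochberg adjustment. The 3 called genes stand against a background of 22.4% of all tested genes called, 11.9% higher and 10.5% lower in knockout cells, so the share among these genes was close to that of the table as a whole. The libraries of both groups did not overlap for 4 of the 10 (Ccnd2, Cdk4, Cdk6 and Cdkn2b), where 37.9% of all tested genes had no overlap. The median log2 fold change of the 10 was 0.055, beside -0.0017 for all tested genes. In bulk RNA, fewer cells of a type and less RNA per cell cannot be told apart. Markers of fat cells moved with the groups: all 10 listed (such as Adipoq and Plin1) were called higher, with a summed level of 9226 to 10971 CPM in knockout libraries, against 6288 to 6512 CPM in control libraries. Their part in the differences described here was not tested.

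The promoters of the 3 called genes are shown because they differ in the motifs they hold. Each is the 250 bases before the RefSeq start of the gene (build GRCm38.p6), read on the gene's own strand, with capitals marking every match on either strand to CACGTG, the E-box bound by Myc and related factors, to CTTTGA or CTTTGT, the core of TCF/LEF sites, or to TTTCCCGC, TTTCGCGC, TTTGGCGC or TTTGCCGC, forms of the E2F site. The Cdk4 window is chr10:127063285-127063534 (plus strand), the Cdk6 window chr5:3343643-3343892 (plus strand) and the Cdkn2b window chr4:89311033-89311282 (minus strand).
Cdk4: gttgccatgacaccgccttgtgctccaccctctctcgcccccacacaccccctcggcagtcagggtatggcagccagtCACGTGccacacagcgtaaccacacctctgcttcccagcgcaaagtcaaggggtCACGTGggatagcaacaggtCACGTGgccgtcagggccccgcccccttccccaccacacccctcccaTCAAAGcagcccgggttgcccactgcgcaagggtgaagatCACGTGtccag
Cdk6: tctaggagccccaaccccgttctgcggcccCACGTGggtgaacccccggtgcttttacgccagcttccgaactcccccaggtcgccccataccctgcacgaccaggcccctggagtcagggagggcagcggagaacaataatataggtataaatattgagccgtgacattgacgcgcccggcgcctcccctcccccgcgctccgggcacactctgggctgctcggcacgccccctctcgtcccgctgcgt
Cdkn2b: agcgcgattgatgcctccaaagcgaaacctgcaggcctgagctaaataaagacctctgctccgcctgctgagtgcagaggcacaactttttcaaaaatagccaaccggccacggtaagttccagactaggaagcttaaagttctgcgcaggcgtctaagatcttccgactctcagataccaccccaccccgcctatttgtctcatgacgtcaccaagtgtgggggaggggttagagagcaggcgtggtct

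The Cdk4 promoter held 4 E-boxes, beginning 172, 118, 98 and 11 bases before the start, and 1 match to the TCF/LEF core. Cdk6 held 1 E-box, 220 bases before its RefSeq start, and Cdkn2b held none of the 3 motifs. The Cdk6 window lies inside the gene as placed by GENCODE, which starts it further upstream, at 3341485. Of 32851 promoter windows of the same length, 6.02% held an E-box, 27.6% a TCF/LEF core and 1.86% an E2F match, and 7 windows (0.0213%) held 4 or more E-boxes. The window of Cdk4 is among these 7, and the cutoff of 4 equals its own count. Cdk4 is a known target of Myc through such boxes. Of all 11 windows found for 8 of the 10 genes, the others with a match were 1 of Ccnd3, with a TCF/LEF core, and 1 of Cdkn2a, with an E2F match. Ccnd1 and Ccnd2 had no window and were not searched. A match is a description of letters, not evidence of binding.

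Cdk4 (ENSMUSG00000006728; GRCm38 chromosome 10, 127063534 to 127067920, plus strand), the more abundant of the kinases, was lower in knockout cells. It stood at 329, 321 and 312 CPM in knockout libraries, against 395, 398 and 393 CPM in control libraries. Every knockout library was below every control library, and the control libraries differed among themselves by less than the knockout ones. The means were 321 ± 8.64 CPM in knockout and 395 ± 2.53 CPM in control cells (SD, n = 3 each), a fall by 0.30 on the log2 scale (SE 0.045; edgeR adjusted p = 2.63e-04), or 1.23-fold. Of its exonic bases, 19.7% overlap those of Tspan31 on the opposite strand. Tspan31 was at 131 ± 2.23 CPM in knockout and 138 ± 0.269 CPM in control cells and was not called (log2 fold change -0.077; edgeR adjusted p = 0.238).

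Cdk6 (ENSMUSG00000040274; chromosome 5, 3341485 to 3531008, plus strand) was the least abundant of the 10 genes and was higher in knockout cells. Its libraries held 7.36, 6.78 and 7.69 CPM in knockout cells, from 220, 213 and 206 reads, against 4.59, 5.28 and 4.82 CPM in control cells, from 154, 149 and 128 reads. The groups did not overlap. The difference was 1.49-fold (log2 fold change 0.57, SE 0.11; edgeR adjusted p = 0.00159). Because Cdk4 was so much more abundant, Cdk6 remained a small share of the pair: on a scale of CPM per kilobase of merged exons it made up 0.516%, 0.489% and 0.569% of the sum of both in knockout libraries, against 0.269%, 0.307% and 0.284% in control libraries. Within each library, the ratio of Cdk6 to Cdk4 separated the groups without overlap (0.00528 ± 4.14e-04 in knockout and 0.00288 ± 1.93e-04 in control libraries, SD, n = 3 each; exact 2-sided permutation test of its logarithm, p = 0.1, the smallest that 3 libraries against 3 allow). Every knockout library was above every control library for Cdk6 and below it for Cdk4. The separation of the ratio and its p-value were fixed by those values and add no support to them.

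**Figure D1:**
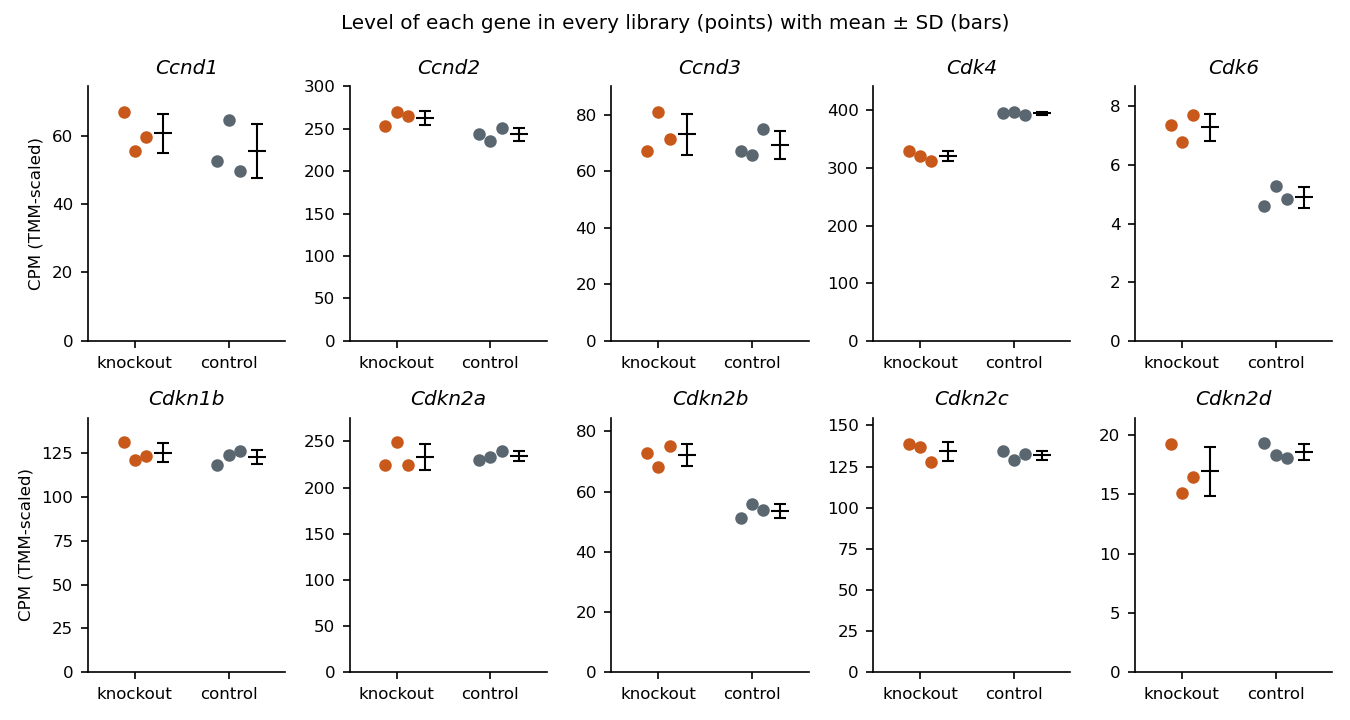
CPM (TMM-scaled) of the 10 genes in each library, with knockout libraries left of control libraries in every panel; points are libraries and bars show the mean ± SD (n = 3 each). Cdk4 sits lower, and Cdk6 and Cdkn2b higher, in all 3 knockout libraries, while in 6 of the other panels the groups overlap.

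None of the D cyclins was called. Ccnd2 (ENSMUSG00000000184; cyclin D2; chromosome 6, 127125162 to 127152193, minus strand) was at 253, 269 and 265 CPM in knockout libraries, against 243, 235 and 251 CPM in control libraries. Its groups did not overlap, by a narrow margin, but it was not called (log2 fold change 0.11, SE 0.047; unadjusted p = 0.0345, edgeR adjusted p = 0.112). Its 95% interval, which is not adjusted for the number of genes, ran from 0.0095 to 0.21 on the log2 scale. Ccnd1 (ENSMUSG00000070348; cyclin D1; chromosome 7, 144929931 to 144939925, minus strand), a gene that beta-catenin and TCF factors are known to activate in other cells, was at 66.8, 55.6 and 59.6 CPM in knockout libraries, against 52.4, 64.6 and 49.5 CPM in control libraries. The groups overlapped, with control replicate 2 above 2 of the knockout libraries. Ccnd1 was not called (log2 fold change 0.13, 95% interval -0.11 to 0.37; edgeR adjusted p = 0.443), and its log2 fold change was 0.24 without control replicate 2 (adjusted p = 0.0511), 0.049 without control replicate 3 and 0.053 without knockout replicate 1. LTO1 overlaps 23.4% of the exonic bases of Ccnd1 on the opposite strand and was at 15.2 ± 0.414 CPM in knockout and 15.7 ± 0.653 CPM in control cells, also not called. Ccnd3 (ENSMUSG00000034165; cyclin D3; chromosome 17, 47505051 to 47599691, plus strand) was at 67, 81.1 and 71.2 CPM in knockout libraries, against 67.3, 65.6 and 74.8 CPM in control libraries. The groups overlapped and it was not called (log2 fold change 0.08, 95% interval -0.078 to 0.24; edgeR adjusted p = 0.483).

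The mix of D cyclins was also alike in both groups. Per kilobase of exon, Ccnd2 made up 56.8 ± 1.37% of the summed D cyclin level in knockout and 56.8 ± 2.34% in control cells, Ccnd1 26.2 ± 2.69% and 25.9 ± 3.45%, and Ccnd3 17 ± 1.5% and 17.3 ± 1.24% (SD, n = 3 each). The order of Ccnd1 and Ccnd3 depends on the length used. With the longest transcript in place of merged exons, Ccnd1 made up 21.2 ± 2.41% in knockout and 20.9 ± 3.01% in control cells and Ccnd3 24.7 ± 1.9% and 25.2 ± 1.52%, with Ccnd2 first in both. The summed D cyclin level was 48.7, 49.7 and 48.9 CPM per kilobase in knockout libraries, against 44.7, 46.2 and 45.7 CPM per kilobase in control libraries, without overlap. This sum was not tested, and most of it was Ccnd2, which did not overlap either and was not called. Taken singly, 37.9% of all tested genes had no overlap.

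Of the INK4 genes, only Cdkn2b was called in edgeR or in any of the 14 alternative fits. Cdkn2b (ENSMUSG00000073802; p15, an inhibitor that TGF-beta induces in epithelial cells; chromosome 4, 89306299 to 89311039, minus strand) stood at 72.9, 68.1 and 75.2 CPM in knockout libraries, against 51.3, 56 and 53.9 CPM in control libraries. The groups did not overlap. The rise was 1.34-fold (log2 fold change 0.42, SE 0.056; edgeR adjusted p = 9.88e-05).

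Cdkn2a, the neighbour of Cdkn2b on the same strand (ENSMUSG00000044303; chromosome 4, 89274471 to 89294653), encodes p16 and, through another first exon, Arf, which stabilises p53. Its transcripts of 852 and 895 bases share 575 exonic bases, and the count per gene does not tell them apart. Cdkn2a was at 225, 249 and 225 CPM in knockout libraries, against 230, 233 and 240 CPM in control libraries. The knockout libraries lay on both sides of the control libraries, and the log2 fold change was -0.0075 (95% interval -0.12 to 0.10; edgeR adjusted p = 0.939), with a sign that changed between alternatives. The ratio of Cdkn2b to Cdkn2a within a library, both per kilobase, was 0.273, 0.23 and 0.282 in knockout libraries, against 0.189, 0.202 and 0.189 in control libraries. These ratios did not overlap (exact 2-sided permutation test of the logarithm, p = 0.1, the smallest possible here). Cdkn2b alone separated the groups and Cdkn2a hardly differed, so the ratio mostly repeats the difference of Cdkn2b. Its p-value adds no support to that difference.

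Cdkn2c (ENSMUSG00000028551; p18, which rises during fat cell differentiation in mouse lines; chromosome 4, 109660876 to 109667189, minus strand) was at 139, 137 and 128 CPM in knockout libraries, against 134, 129 and 133 CPM in control libraries. Its groups overlapped (log2 fold change 0.026, 95% interval -0.077 to 0.13; edgeR adjusted p = 0.743). Cdkn2d (ENSMUSG00000096472; p19, the remaining INK4 protein; chromosome 9, 21288410 to 21291407, minus strand) was at 19.2, 15.1 and 16.4 CPM in knockout libraries, against 19.3, 18.3 and 18.1 CPM in control libraries. Knockout replicate 1 lay within the control range and the other 2 below it, and the gene was not called (log2 fold change -0.13, 95% interval -0.32 to 0.056; edgeR adjusted p = 0.318). Leaving out knockout replicate 1 moved its log2 fold change to -0.24 (adjusted p = 0.065), and leaving out knockout replicate 2 moved it to -0.057. Cdkn1b (ENSMUSG00000003031; p27, whose loss in mice enlarges fat depots; chromosome 6, 134920401 to 134925513, plus strand) was at 131, 121 and 123 CPM in knockout libraries, against 118, 124 and 126 CPM in control libraries. The groups overlapped, and the log2 fold change was 0.029 (95% interval -0.078 to 0.14; edgeR adjusted p = 0.724).

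**Figure D2:**
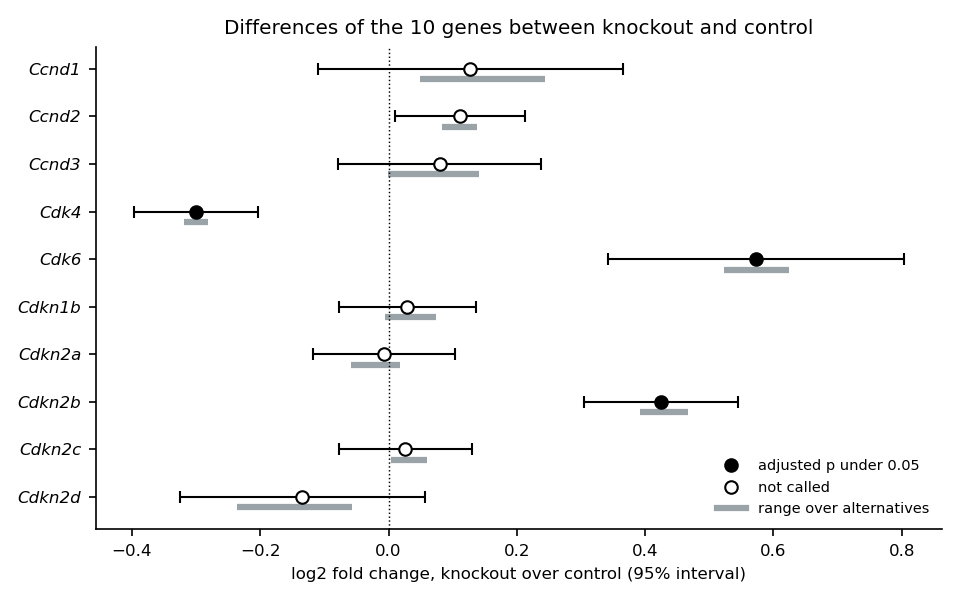
Log2 fold change (knockout over control) of each of the 10 genes with its 95% interval, filled where the adjusted p was under 0.05; grey bars span the 14 alternative fits. Cdk6 (0.57) and Cdkn2b (0.42) lie to the right of 0 and Cdk4 (-0.30) to the left in every fit, while the bars of Ccnd3, Cdkn1b and Cdkn2a cross 0.

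The inhibitors were spread over the order of levels per kilobase, with Cdkn2a at its head and Cdkn2d near its lower end. Cdkn2a came first, at 199 ± 12.1 CPM per kilobase in knockout and 200 ± 4.57 in control cells, followed by Cdk4, at 98.7 ± 2.66 in knockout and 122 ± 0.778 in control cells (SD, n = 3 each). Cdkn2c (50 ± 2.14 in knockout and 49.1 ± 1.02 in control cells) and Cdkn2b (51.9 ± 2.61 and 38.6 ± 1.67) did not differ beyond their spread in knockout cells, whereas in control cells Cdkn2c was above Cdkn2b in every library. Cdkn1b (27.5 ± 1.19 in knockout and 26.9 ± 0.921 in control cells) and Ccnd2 (27.9 ± 0.899 and 25.8 ± 0.851) overlapped in both groups, as did Cdkn2d (10.8 ± 1.33 in knockout and 11.8 ± 0.41 in control cells) and Ccnd1 (12.9 ± 1.2 and 11.8 ± 1.7). Ccnd3 (8.33 ± 0.823 and 7.89 ± 0.561) and then Cdk6 (0.52 ± 0.0328 and 0.35 ± 0.0252) came last. With the length of the longest transcript, Cdk4 was at 156 in knockout and 192 CPM per kilobase in control cells and Ccnd3 at 19 and 17.9. Ccnd2 was then at 41.5 in knockout and 38.4 in control cells, above Cdkn1b, which stayed at 27.5 and 26.9. Positions in the middle and lower parts of this order therefore rest on the length chosen.

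Within the INK4 family, the share of Cdkn2b in the summed level per kilobase was 17%, 15.2% and 17.8% in knockout libraries, against 12.5%, 13.5% and 12.7% in control libraries. That of Cdkn2a was 62.3%, 66% and 63.1% in knockout libraries, against 66.4%, 66.6% and 67.3% in control libraries. The summed INK4 level overlapped between groups (304 to 322 CPM per kilobase in knockout and 295 to 304 in control libraries), and that of Cdk4 and Cdk6 did not (96.6 to 102 in knockout and 121 to 123 in control libraries). The ratio of the INK4 sum to the kinase sum was 3.03, 3.25 and 3.15 in knockout libraries, against 2.42, 2.43 and 2.51 in control libraries. Nearly all of the kinase sum was Cdk4, so this separation largely repeats the fall of Cdk4 and adds no support to it. Cdkn2a, the largest part of the INK4 sum, is counted together with the transcript of Arf, which acts on p53. The INK4 sum, the shares in it and the ratio to the kinases therefore hold an unknown part from Arf. These sums weigh transcripts, and say nothing of the amounts of protein.

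**Figure D3:**
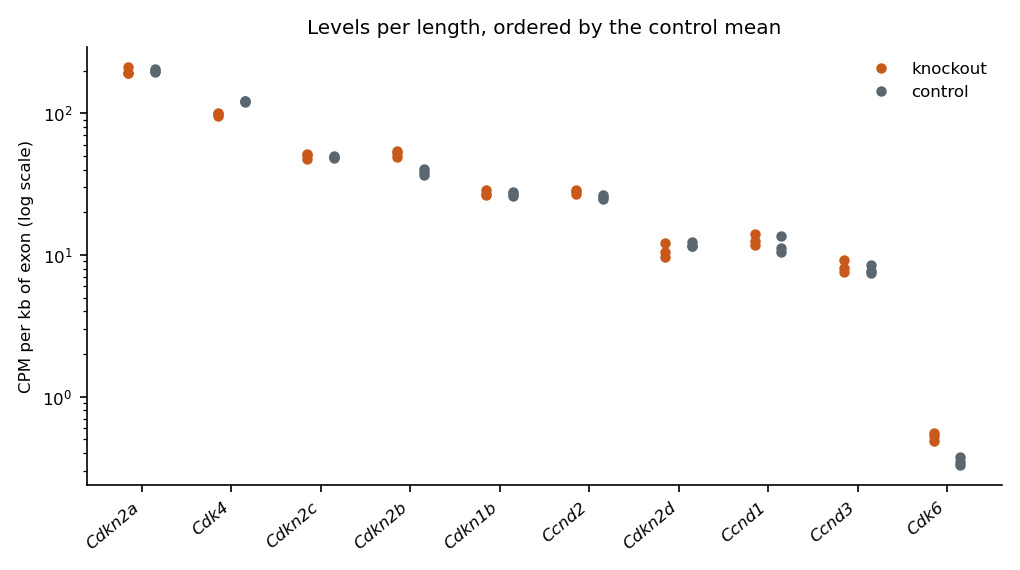
CPM per kilobase of merged exons for the 10 genes (log axis), with each library a point, knockout left of control, and genes ordered by their control mean. Cdkn2a is highest at about 200 and Cdk6 lowest, at 0.52 in knockout and 0.35 in control cells.

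The INK4 genes and Cdkn1b shared no stretch of 50 bases with annotated transcripts of other genes, so reads of that length or more from annotated exons of Cdkn2a and Cdkn2b have no copy among the other transcripts. The shares were 21.6% for Ccnd1 and 17% for Cdk4, nearly all with the genes that overlap them on the other strand, and 3.32% to 6.31% for Cdk6, Ccnd2 and Ccnd3. Whether counting used strand is not given in the sources used here.

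By likeness of pattern (the root mean square difference of log2 CPM over the 6 libraries, each gene centred on its mean, among 10948 genes), the gene nearest to Cdk4 was Nsd2, a histone methyltransferase gene, at 0.0147. It stood at 136 ± 4.12 CPM in knockout and 169 ± 0.488 CPM in control cells. Nearest to Cdkn2b was Kitl, which encodes the ligand of the receptor Kit, at 0.0318 (148 ± 7.79 CPM in knockout and 109 ± 6.24 CPM in control cells). Nearest to Cdk6 was C9orf72, at 0.0463 (50.7 ± 2.99 CPM in knockout and 33.9 ± 0.764 CPM in control cells). Mdh1 (0.0465) and Wnt11 (0.0468) were almost as near to Cdk6, as were Dnajb9 (0.0328) and Sema3c (0.0331) to Cdkn2b. Neither Cdk6 nor Cdkn2b therefore has a single partner that stands out.

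The remaining CIP/KIP inhibitors moved in opposite directions. Cdkn1a (p21, a p53 target that inhibits CDK2) rose 1.29-fold, to 102 ± 7.42 CPM in knockout, against 79.5 ± 4.05 CPM in control cells (edgeR adjusted p = 5.77e-04). Cdkn1c (p57) was at 48.9, 39 and 47 CPM in knockout libraries, against 224, 177 and 216 CPM in control libraries (log2 fold change -2.20). Beside Cdkn1b, which was not called, these give the family 1 member higher and 1 lower.

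Of 13 genes of pocket proteins, E2F and DP factors, 3 rose, 3 fell and 7 were not called, with a median log2 fold change of -0.061. Over all tested genes, 22.4% were called, 11.9% higher and 10.5% lower. Rb1, the retinoblastoma gene, rose 1.3-fold, to 43.9 ± 1.9 CPM in knockout, against 33.9 ± 2.3 CPM in control cells (edgeR adjusted p = 7.79e-04). E2f2 rose 1.62-fold, to 9.65 ± 0.193 CPM in knockout, against 5.96 ± 0.316 CPM in control cells (adjusted p = 1.09e-04), and E2f5, called in 5 of the 14 alternatives, 1.19-fold. E2f1, an activator of S-phase genes, fell by 0.29 on the log2 scale (SE 0.066; adjusted p = 0.00561). Tfdp1, the gene of an E2F partner, fell by 0.20 and Rbl1 (p107) by 0.20. Without control replicate 1 neither Tfdp1 (adjusted p = 0.0552) nor Rbl1 was called and 1 gene of the list fell, and Rbl1 was not called without knockout replicate 3 either (its highest adjusted p was 0.0793). The uncalled members with the highest levels were Tfdp2 (57.9 ± 2.48 CPM in knockout and 64.4 ± 2.73 CPM in control cells) and Rbl2 (p130; 55.5 ± 0.525 and 51.2 ± 1.5 CPM).

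Of 9 genes of cyclin E and A, CDK2 and CDK activation, Cdc25a, a phosphatase that activates CDKs, rose, Ccne2 (cyclin E2) and Ccnh (cyclin H, of the CDK-activating kinase) fell, and 6 were not called (median log2 fold change -0.12). The share called over all tested genes was 22.4%. Cdc25a was at 40.2 ± 1.26 CPM in knockout and 34.6 ± 1.52 CPM in control cells, and was not called without control replicate 1 or 2. Ccne2 was at 68.8 ± 4.73 CPM in knockout and 81.4 ± 4.37 CPM in control cells, and was not called without control replicate 1. Ccnh was called in 7 of the 14 alternatives. Without any 1 of the knockout replicates 1 gene of the list fell, and none of the 9 was called without control replicate 1. Cdc37, a chaperone of CDK4 and CDK6, was at 133 ± 7.73 CPM in knockout and 137 ± 1.2 CPM in control cells, and Cdk7 at 93.5 ± 4.07 and 97 ± 4.11 CPM, neither called.

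Of 13 genes of p27 and D cyclin turnover, 3 fell and none rose (median log2 fold change -0.025). The share called was close to the 22.4% of all tested genes, of which 10.5% were lower. Cks1b and Skp2, parts of the ubiquitin ligase that marks p27 for breakdown, were among them. Cks1b fell to 24.4 ± 2.17 CPM in knockout, against 35.2 ± 0.791 CPM in control cells (log2 fold change -0.53, SE 0.07; edgeR adjusted p = 9.80e-05). Skp2 fell to 21.1 ± 0.236 CPM in knockout, against 25.1 ± 0.598 CPM in control cells (adjusted p = 0.0109, and 0.0506 without control replicate 1). Ddb1, of the ligases built on CUL4, fell by 0.14 on the log2 scale and was called in 5 of the 14 alternatives. Without control replicate 1, 1 gene of the list was called. Fbxw8 (196 ± 2.58 CPM in knockout and 201 ± 2.46 CPM in control cells) and Cul1 (159 ± 9.81 and 171 ± 7.34 CPM) were not called.

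Of 20 transcriptional regulators of the genes above, 2 rose, 2 fell and 16 were not called (median log2 fold change -0.016). This share was close to the 22.4% of all tested genes called. Klf4, a Krüppel-like factor, rose to 42.9 ± 6.76 CPM in knockout, against 29.4 ± 1.61 CPM in control cells (edgeR adjusted p = 0.00299), and Ets1, of the ETS family, fell to 53 ± 2.92 CPM in knockout, against 63.8 ± 1.71 CPM in control cells (adjusted p = 0.00306). Foxo1, a forkhead factor that can activate Cdkn1b, was at 14.7 ± 2.73 CPM in knockout and 10.3 ± 1.59 CPM in control cells and called higher. Bmi1, a Polycomb gene that silences the Cdkn2a locus, was at 89.2 ± 4.88 CPM in knockout and 101 ± 2.12 CPM in control cells and called lower. Neither Foxo1 nor Bmi1 was called without knockout replicate 2 or 3 or control replicate 1 or 2; without knockout replicate 3, control replicate 1 or control replicate 2, 1 gene rose and 1 fell in the list, without knockout replicate 2, 1 rose and 3 fell, and without knockout replicate 1, 4 rose and 2 fell. With no filter applied 5 rose and 2 fell, and with control replicate 3 and knockout replicate 2 both left out 3 rose and 5 fell. Ctnnb1 (beta-catenin; 873 ± 15.8 CPM in knockout and 919 ± 14.5 CPM in control cells) and Foxo3 (73.4 ± 4.25 and 68 ± 3.91 CPM) were not called. Myc, singled out after its values were seen because of the E-boxes of Cdk4, was at 13.9 ± 3.51 CPM in knockout and 11.4 ± 0.0578 CPM in control cells. It was not called (edgeR adjusted p = 0.211). Knockout libraries held 11.8, 18 and 12.1 CPM, against 11.4, 11.4 and 11.5 CPM in control libraries, so most of the difference came from knockout replicate 2. Over the 14 alternatives its log2 fold change ran from 0.06 to 0.40. It passed in 1 of them, with no low-count filter (adjusted p = 0.0126).

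**Figure D4:**
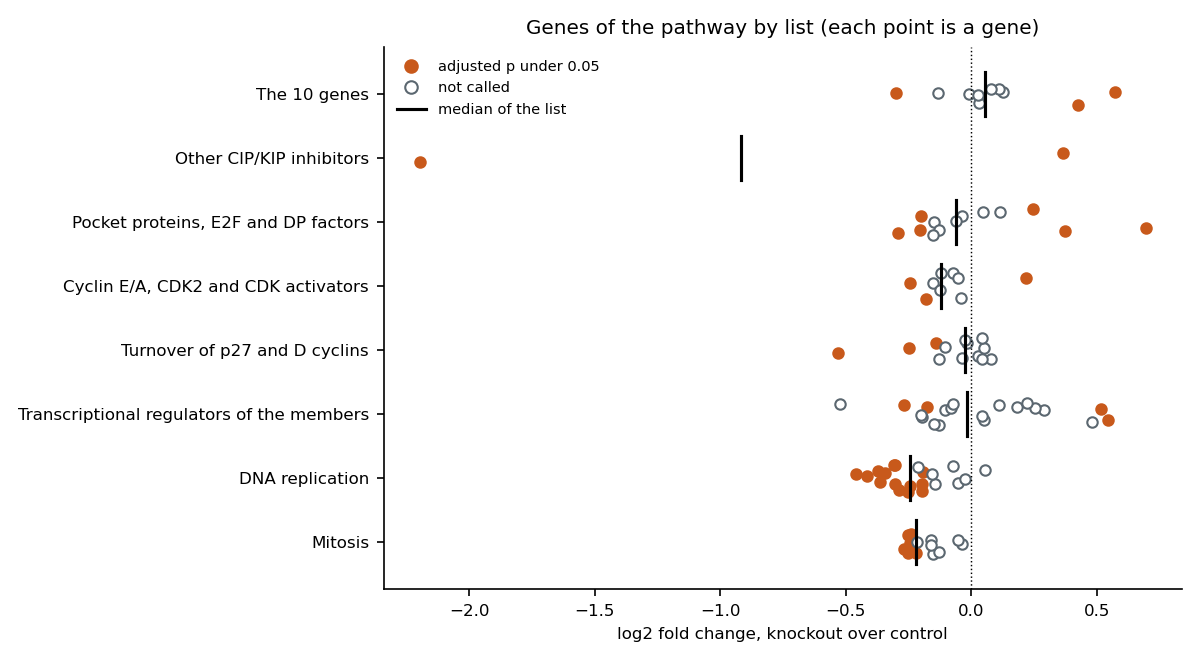
Log2 fold change (knockout over control) of every tested gene of the 10 and of each pathway list, a point per gene, filled where the adjusted p was under 0.05, with a line at each list's median. Called genes of the DNA replication and mitosis lists all lie left of 0, with medians of -0.24 and -0.22, while the 10 genes lie on both sides.

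Genes of DNA replication, many of them E2F targets, were mostly lower in knockout cells. Of 21, 14 fell, 0 rose and 7 were not called, with a median log2 fold change of -0.24. Ccne1 and Ccne2, of the cyclin E list above, are counted here too. Mcm5, of the replicative helicase, fell to 129 ± 6.8 CPM in knockout, against 177 ± 7.62 CPM in control cells (log2 fold change -0.46, SE 0.053; edgeR adjusted p = 2.92e-05). Mcm2, Mcm6 and the helicase cofactor Gins2 fell by 0.37, 0.35 and 0.42 on the log2 scale, while Rrm1 (252 ± 7.44 CPM in knockout and 256 ± 13.7 CPM in control cells) and Mcm7 (112 ± 4.3 and 124 ± 5.47 CPM) were not called. Of 14 mitosis genes, 7 fell, 0 rose and 7 were not called (median -0.22). For both lists, the share over all tested genes was 10.5% lower and 11.9% higher. Both lists were chosen with earlier results of these data known, so their counts are not a neutral sample to set beside that share. Top2a, Kif11, Bub1b and Cdk1 fell by 0.27, 0.23, 0.22 and 0.25, and Mki67 (156 ± 9.74 CPM in knockout and 173 ± 12.6 CPM in control cells) and Cdc20 (41.5 ± 3.17 and 46.3 ± 2.67 CPM) were not called. The counts rest on all libraries: without control replicate 1, 7 replication genes and 1 mitosis gene fell, and without knockout replicate 3, 9 and 1.

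Of 8 progenitor markers 0 rose and 1 (Thy1) fell, with sums of 3296 to 3453 CPM in knockout and 3248 to 3416 CPM in control libraries. Over all tested genes, 11.9% were called higher and 10.5% lower. The sums hide opposite differences in the most abundant markers, none of them called. Ly6a (Sca1) was at 918 ± 86.1 CPM in knockout and 671 ± 115 CPM in control cells. Pdgfra was at 1135 and 1247 CPM and Itgb1 (CD29) at 1031 and 1111 CPM. Leukocyte markers summed to 7.19 to 8.25 CPM in knockout and 6.48 to 7.8 CPM in control libraries, with Adgre1 at 0. Endothelial markers summed to 26.7 to 28.1 CPM in knockout and 23.4 to 25.1 CPM in control libraries, with Cldn5 at 0 and Kdr called higher. Myogenic markers summed to 6.78 to 8.4 CPM in knockout and 3.57 to 4.68 CPM in control libraries, nearly all from Des, which was called higher, with Myf5 and Pax7 at 0. Mural markers summed to 523 to 561 CPM in knockout and 482 to 503 CPM in control libraries, mostly from Acta2, with Rgs5 called higher. Epithelial markers summed to at most 0.234 CPM in any library, and both erythroid markers were at 0.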

How the data were processed

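RNA-seq libraries (total RNA, depleted of ribosomal RNA, stranded kit, per the labels' protocols) were deposited as raw read counts per Ensembl gene. Per the submitters' processing notes, the build was GRCm38 and the tools included featureCounts 1.5.1, STAR 2.5.2b and DESeq2 1.16.0, with no roles stated. The sources used here give no annotation release, strand setting or handling of multi-mapping reads. Columns were matched to samples by title and grouped by genotype label. Of 49671 identifiers, 49326 had a symbol. Positions and exon lengths are from GENCODE M21 (GRCm38), and promoters from RefSeq (GRCm38.p6).

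Counts were fitted with edgeR 4.0.16 in R 4.3.3 (TMM, filterByExpr, robust quasi-likelihood F-test, group as only term; tested on simulated data), with Benjamini-Hochberg adjustment over all tested genes. SE is the size of the log2 fold change divided by the square root of F. Pairs of libraries within a group differed beyond sampling noise (chi-square per degree of freedom 4.29 to 14.8). The 10 genes and the lists were chosen with earlier results of these data known. List genes were named by a rule: up to 4 called per direction by adjusted p and the 2 most abundant uncalled. Alternatives were other scalings (DESeq2 size factors, upper quartile, total counts), filters (none, or CPM of at least 1 in 3 libraries), DESeq2 1.42.0, limma-voom 3.58.1 and leaving out libraries.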

Additional observations from a re-analysis of the deposited data

How the results depend on the processing

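Cdk4, Cdk6 and Cdkn2b were called, each with its direction unchanged, in all 14 alternatives, and the count of called genes among the 10 was 3 in every one. Their log2 fold changes ran from -0.32 to -0.28 for Cdk4, 0.52 to 0.62 for Cdk6 and 0.39 to 0.47 for Cdkn2b. With 1 library left out, the 10 kept 3 called genes (3 to 3), and the count over all genes ran from 2145 (without control replicate 1) to 3475 (without knockout replicate 2), with 2178 without knockout replicate 3. No scaling moved the median log2 fold change of all genes by 0.1.

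Values near 0 changed sign. With 1 library left out, Ccnd3 ran from -0.0016 (without knockout replicate 2) to 0.14, Cdkn1b from -0.0060 (without knockout replicate 1) to 0.053 and Cdkn2a from -0.059 to 0.018, while Cdkn2c stayed above 0, from 0.0038 to 0.060. Cdkn2a was at 0.0023 without a filter on low counts, 0.0026 with a CPM filter, 0.018 each without knockout replicate 1 or 3 and 0.0063 without control replicate 3. None of these was called, and the cause was not tested. Without control replicate 2, Tcf7l2 was called (log2 fold change -0.46, edgeR adjusted p = 0.0322). No paired analysis was possible because replicates are not numbered in the labels. Cdk6, with 128 to 220 reads per library, had the widest interval of the 3 called among the 10.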
